A study of Homo sapiens with 32 samples.

Results

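HYAL1, HYAL2 and HYAL3 are the hyaluronidase genes that lie side by side on chromosome 3, and their rows make up 3 of the 35238 genes in a table of RNA-seq expression from endometrial cancer cell lines. They were picked by name, and HYAL3 also because its values were lower with the drug SM08502 than with vehicle in all 4 lines, so that its response to SM08502 is described here without a test. The combination libraries were known as well when it was picked, and its values there are described in the same way. HYAL1 and HYAL2 were included whatever their values.

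The study treated 4 established human endometrial cancer lines for 24 h with 0.1% DMSO as vehicle, with paclitaxel, with SM08502 or with both drugs, and sequenced 2 replicates of each of the 16 groups. Ishikawa, labelled wild type for CTNNB1 (the gene of beta-catenin), received 11 nM paclitaxel and 80 nM SM08502. The other 3 lines are labelled CTNNB1-mutated. Ishikawa-S33Y received 6 nM paclitaxel and 85 nM SM08502, SNGM received 11.7 nM and 350.7 nM, and HEC265 received 5.6 nM and 149 nM. Each dose was that line's own IC50 for viability, so the dose and the line cannot be told apart. Ribosomal RNA was depleted from 350 ng of RNA in Ishikawa and from 500 ng in the other lines. SM08502, also named cirtuvivint, inhibits the CDC-like kinases, which phosphorylate the SR proteins of the splicing machinery. Paclitaxel is a taxane that stabilises microtubules. Cells were plated in duplicate, and the labels do not say that the replicates were separate cultures grown at different times, so p-values measure the spread between these samples, which may be technical.

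Hyaluronan is a long, unsulfated sugar polymer of the extracellular matrix. HYAL2, anchored at the cell surface by a lipid tail, cuts long chains into intermediate pieces, and HYAL1, a lysosomal enzyme, cuts these further before exoglycosidases release single sugars. HYAL3 belongs to the same family by sequence, but its own catalytic activity is less clear. The endometrium remodels hyaluronan over the menstrual cycle, and tumours often hold more of it than normal tissue.

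In GRCh38.p14 coordinates from RefSeq, the cluster spans 29.914 kb of chromosome 3, from the left end of HYAL3 to the right end of HYAL2. HYAL3 lies at chr3:50292832-50299405, HYAL1 at chr3:50299893-50312381 and HYAL2 at chr3:50317808-50322745, and each is annotated as protein-coding. Another gene sits inside the span of HYAL3. NAA80, which encodes the enzyme that acetylates the N terminus of actin, lies at chr3:50296402-50299405 on the same minus strand, covers 3004 bp or 45.7% of the HYAL3 span, and shares an annotated start site with HYAL3. HYAL3 has another annotated start at position 50298860, 545 bp further into the gene. The deposited table lists NAA80 under its older symbol NAT6. RefSeq gives NAT6 as an older name of HYAL1 as well, but HYAL1 has a row of its own in the table. The labels do not say how reads in exons common to HYAL3 and NAA80 were assigned, so their counts may be split between both rows.

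The 250 bases upstream of that shared start are shown because both genes have an annotated start there and their values lay in opposite directions with SM08502 (values follow). The window is chr3:50299406-50299655 in GRCh38.p14, printed 5′ to 3′ on the minus strand, and capitals mark TGACG, the core of a cyclic AMP response element half-site.
HYAL3 and NAA80: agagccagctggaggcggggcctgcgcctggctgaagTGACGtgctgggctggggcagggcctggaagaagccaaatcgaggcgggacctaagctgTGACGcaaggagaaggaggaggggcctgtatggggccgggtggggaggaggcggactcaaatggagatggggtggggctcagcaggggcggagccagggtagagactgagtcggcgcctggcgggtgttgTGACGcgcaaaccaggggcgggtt
TGACG, searched on both strands, occurred 3 times, and 0.993% of 34943 RefSeq windows of this length held at least as many, while 21.2% held any. GGGCGG, the GC box core, occurred 2 times, as often or more in 24.3% of windows. TATAAA did not occur, and 10.8% of windows held it. Of all windows, 0.489% were shared by more than a single gene. These are matches of letters in a window and say nothing of binding. G and C made up 67.6% of this window, against a median of 58.0% over all windows, and the shares were not matched for this.

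Library depth, recovered as whole reads from the deposited values, was 13.0 to 34.1 M reads (median 21.7 M; 1 M is 1000000 reads) in 30 libraries. The remaining 2 were shallow: combination replicate 2 of Ishikawa-S33Y had 2.99 M reads and combination replicate 2 of SNGM had 1.61 M reads. In the latter a count of 0 allows up to 1.87 CPM (counts per 1000000 reads), the level of 3 reads; this one-sided limit is used for counts of 0, and two-sided Poisson intervals for counts above 0. Intervals and this limit cover counting error only. All 6 epithelial markers (EPCAM, KRT8, KRT18, KRT19, CDH1, PAX8) were detected in every library, with a summed level of 948 to 3484 CPM. Of the stromal markers, COL1A1 made up nearly all of a summed 710 to 1162 CPM in Ishikawa-S33Y, against 30.8 to 195 CPM in Ishikawa and at most 10.1 CPM in SNGM and HEC265. PDGFRB was at 0 in 14 libraries, THY1 in 2 and COL1A1 in 1, while COL1A2 and DCN were detected in every library. Leukocyte markers summed to at most 51.8 CPM. CD3E was at 0 in 18 libraries, while PTPRC and CD68 were detected in every library, CD68 at up to 50.4 CPM in HEC265. Endothelial markers summed to at most 10.1 CPM. The part of these markers in any result below was not tested.

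HYAL3 was low wherever SM08502 was present, in all 4 lines. Over the 16 libraries without SM08502 it stood at 8.56 to 18.3 CPM, and over the 16 with it at 0 to 5.23 CPM, so that no library of either kind reached into the range of the other. In Ishikawa the vehicle replicates held 16.2 and 16.6 CPM (262 and 216 reads) and the SM08502 replicates 4.34 and 5.23 CPM (75 and 86 reads). Ishikawa-S33Y held 18.3 and 17.6 CPM on vehicle and 2.97 and 3.36 CPM on SM08502. Both Ishikawa lines therefore had low SM08502 libraries, with those of Ishikawa-S33Y the lower of the pair. SNGM held 10.5 and 8.56 CPM on vehicle and 2.54 and 2.85 CPM on SM08502. HEC265 held 12.6 and 11.6 CPM on vehicle and 3.08 and 3.28 CPM on SM08502. As shares of the vehicle mean, Ishikawa kept 29.2%, Ishikawa-S33Y 17.6%, SNGM 28.3% and HEC265 26.3%. On the log2(CPM + 1) scale used for all differences below, where low genes show smaller differences than their true ratio, these are -1.59, -2.19, -1.50 and -1.65, with a mean over lines of -1.73. The same libraries chose HYAL3, so these values carry no test; 15.8% of all 17011 tested genes were called lower in this comparison. In cultures, less RNA per cell and fewer cells with the RNA cannot be told apart.

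**Figure D1:**
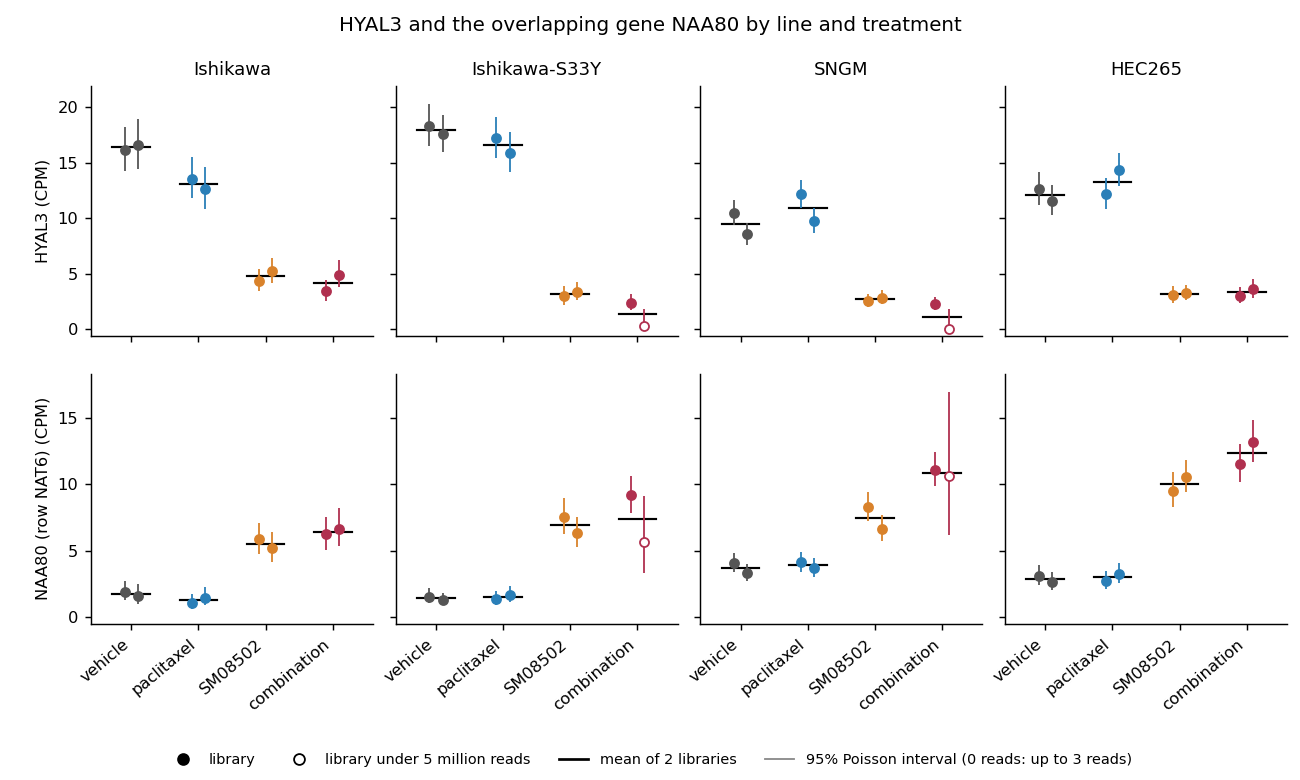
HYAL3 (top) and NAA80 (bottom, row NAT6) in CPM by treatment, with a panel for each cell line. Points are libraries, open points the 2 shallow libraries, black bars the means of 2 libraries, and thin lines 95% Poisson intervals of the read count (for 0 reads, up to the level of 3 reads). HYAL3 stays at or under 5.23 CPM and NAA80 at or above 5.17 CPM in every library with SM08502.

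With SM08502 added to paclitaxel, HYAL3 was again low in all 4 lines. The mean difference over lines was -2.23 (limma SE 0.18), given with no test; 19.1% of all genes were called lower in this comparison. Paclitaxel replicates held 13.6 and 12.6 CPM in Ishikawa against 3.42 and 4.93 CPM (56 and 66 reads) on the combination. The combination libraries were below both paclitaxel libraries in every line. In Ishikawa-S33Y paclitaxel gave 17.2 and 15.9 CPM and the combination 2.41 CPM (47 reads) and, in the shallow replicate, 0.334 CPM from 1 read (95% Poisson interval 0.0085 to 1.86 CPM). In SNGM paclitaxel gave 12.1 and 9.76 CPM and the combination 2.26 CPM (61 reads) and, in the shallow replicate, 0 reads. In HEC265, where all 4 libraries were deep, paclitaxel gave 12.1 and 14.3 CPM and the combination 3.04 and 3.63 CPM (71 and 76 reads).

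From here, a difference, rise, fall or call on paclitaxel is that of the combination against paclitaxel alone. A level in CPM on paclitaxel is that of the libraries with paclitaxel alone. Line by line the HYAL3 difference on paclitaxel was -1.46 for Ishikawa, -3.04 for Ishikawa-S33Y, -2.72 for SNGM and -1.71 for HEC265, with a limma SE of 0.37 for each. The larger values of Ishikawa-S33Y and SNGM rested partly on the shallow libraries. Without these they were -2.36 and -1.87, the mean was -1.85 (SE 0.081), and Ishikawa and HEC265 kept their values.

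Combination replicate 1, deep in every line, held these shares of the paclitaxel mean: Ishikawa 26.1%, Ishikawa-S33Y 14.6%, SNGM 20.7% and HEC265 23.0%. In Ishikawa and HEC265 replicate 2 was deep as well, and the mean of both replicates held 31.9% and 25.2%. Ishikawa-S33Y had the lowest share of HYAL3 left, as it did with SM08502 alone. The widest gap between lines in the log2 difference was Ishikawa-S33Y minus Ishikawa, at -1.58, or -0.90 without the shallow libraries; it is given with no test.

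Paclitaxel alone left HYAL3 near vehicle, with untested differences of -0.30 for Ishikawa, -0.11 for Ishikawa-S33Y, 0.18 for SNGM and 0.12 for HEC265. Adding paclitaxel to SM08502 gave untested differences of -0.17 in Ishikawa and 0.05 in HEC265, and of -0.96 and -1.03 in Ishikawa-S33Y and SNGM, where the combination includes the shallow libraries. On paclitaxel the HYAL3 means ran from 16.5 ± 0.93 CPM in Ishikawa-S33Y through 13.2 ± 1.55 in HEC265 and 13.1 ± 0.67 in Ishikawa to 10.9 ± 1.68 in SNGM (SD, n = 2). None of the 6 line pairs was called in limma, adjusted or at an unadjusted p under 0.05. Of all genes 47.6%, 64.1%, 64.8%, 58.4%, 57.7% and 52.7% were called for Ishikawa-S33Y minus Ishikawa, SNGM minus Ishikawa, HEC265 minus Ishikawa, SNGM minus Ishikawa-S33Y, HEC265 minus Ishikawa-S33Y and HEC265 minus SNGM. In limma voom and in the fit without shallow libraries 1 of 6 was called.

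NAA80, the gene that shares a start with HYAL3, went the other way. Over the 16 libraries without SM08502 it stood at 1.10 to 4.11 CPM, and over the 16 with it at 5.17 to 13.1 CPM, again with no overlap. In Ishikawa it went from 1.10 and 1.46 CPM on paclitaxel to 6.23 and 6.64 CPM on the combination. In Ishikawa-S33Y it went from 1.37 and 1.65 CPM to 9.15 and 5.68 CPM, the last from 17 reads in the shallow library. All 4 combination libraries of these related lines were thus higher than all 4 paclitaxel ones. In SNGM it went from 4.11 and 3.69 CPM to 11.1 CPM and, in the shallow library, 10.6 CPM from 17 reads. In HEC265 it went from 2.73 and 3.27 CPM to 11.5 and 13.1 CPM. HEC265 held the highest combination levels.

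The rise of NAA80 on paclitaxel averaged 1.61 (SE 0.09, limma adjusted p = 2.01e-11), rank 4 from the top of 17011 genes, of which 25.7% were called higher. It passed the test in every line (8.3%, 22.1%, 9.28% and 8.39% of genes called higher), with Ishikawa at 1.71, Ishikawa-S33Y at 1.72, SNGM at 1.27 and HEC265 at 1.74, and no line pair was called as different (0 of 6 in limma, adjusted or at an unadjusted p under 0.05, and 1 of 6 in limma voom). Without the shallow libraries SNGM minus Ishikawa-S33Y was called (-0.72, adjusted p = 0.0490). Against vehicle, SM08502 raised NAA80 by a mean of 1.32 (SE 0.09, adjusted p = 3.33e-10), with 1.24, 1.71, 0.84 and 1.50 in the same order of lines, all called; 22.6% of all genes were called higher in the mean and 6.5%, 18.5%, 3.8% and 9.27% in the lines. In that comparison the rise was smaller in SNGM than in Ishikawa-S33Y by 0.87 (SE 0.25, adjusted p = 0.0282; 9.83% of genes called), tested after the values were seen. The SNGM call was lost without vehicle replicate 2 (0.73, adjusted p = 0.0655) or SM08502 replicate 1 (0.70, adjusted p = 0.0876), and with each line fitted alone the calls against vehicle were lost in Ishikawa and SNGM (adjusted p = 0.0503 and 0.112).

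Within a library, HYAL3 was set against its neighbours, again with no test. The difference of log2(CPM + 1) between HYAL3 and NAA80 averaged 2.14 on paclitaxel and -1.70 on the combination, a change of -3.84. The same change was -1.67 against HYAL2 and -1.48 against HYAL1. Without the shallow libraries the 3 changes were -3.54, -1.34 and -1.26.

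As a share of the reads of both rows, NAA80 took 6.89% to 28.1% on vehicle (median 14.6%) and 7.38% to 27.4% on paclitaxel (median 14.4%). It took 49.7% to 76.5% on SM08502 (median 70.8%) and 57.4% to 100% on the combination (median 79.1%). The pair as a whole therefore passed from mainly HYAL3 to mainly NAA80 reads in 15 of 16 libraries with SM08502, the exception being SM08502 replicate 2 of Ishikawa. The sum of both rows was 18.1 ± 0.09 CPM on vehicle and 10.3 ± 0.16 on SM08502 in Ishikawa, and 19.4 ± 0.70 and 10.1 ± 0.58 in Ishikawa-S33Y (SD, n = 2). SNGM had 13.2 ± 1.88 and 10.1 ± 0.96 CPM, and HEC265 14.98 ± 1.04 and 13.2 ± 0.88. These sums and shares were computed after the values were seen and carry no test. Whether reads of common exons went to a different row with SM08502 was not tested.

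**Figure D2:**
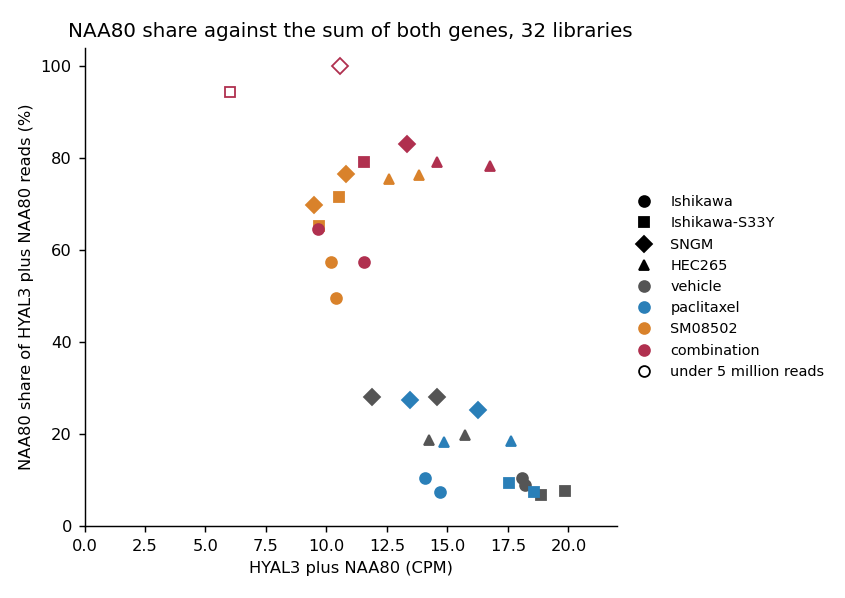
NAA80 share of the reads of HYAL3 and NAA80 (vertical axis, %) against their summed level (horizontal axis, CPM) in 32 libraries. Colour gives the treatment, shape the line, and open symbols the 2 shallow libraries. Libraries without SM08502 lie at or under 28.1% and those with it at or above 49.7%.

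HYAL2, the surface hyaluronidase and the paralogue with the most reads, fell with SM08502 in 3 of the 4 lines and kept a larger share of its level than HYAL3. In Ishikawa it was 77.9 and 73.5 CPM on vehicle and 44.4 and 45.2 CPM on SM08502. In Ishikawa-S33Y it was 56.7 and 51.4 CPM, then 36.6 and 30.8 CPM. SNGM had 60.6 and 47.6 CPM, then 30.6 and 33.7 CPM. In these 3 lines both SM08502 libraries lay below both vehicle libraries. HEC265 differed in that its ranges overlapped, at 41.9 and 45.6 CPM on vehicle and 42.8 and 38.5 CPM on SM08502. The mean over lines was -0.56 (SE 0.06, limma adjusted p = 8.02e-07), with -0.74, -0.67 and -0.72 in Ishikawa, Ishikawa-S33Y and SNGM (adjusted p at most 0.00105) and -0.10 in HEC265 (95% interval -0.37 to 0.16, adjusted p = 0.721). Genes called lower made up 15.8% for the mean, and 8.68%, 10.6%, 4.06% and 5.39% in the 4 lines.

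On paclitaxel HYAL2 gave the same picture. The combination held 38.5 and 44.0 CPM against 71.9 and 62.4 CPM in Ishikawa, and 30.3 and 25.7 CPM (the latter 77 reads) against 47.0 and 48.7 CPM in Ishikawa-S33Y. SNGM held 35.0 and 31.1 CPM (the latter 50 reads) against 60.5 and 48.9 CPM. HEC265 held 39.2 and 39.7 CPM against 42.8 and 41.5 CPM. The shallow libraries thus stood close to their deep replicates for this gene. The mean was -0.56 (adjusted p = 6.25e-07), with -0.69, -0.76 and -0.71 called and -0.09 in HEC265 not called (95% interval -0.36 to 0.18, adjusted p = 0.751). Genes called lower made up 6.14%, 17.4%, 6.6% and 6.53% of those tested in the 4 lines. With each line fitted alone HYAL2 was not called in Ishikawa or SNGM in either comparison (adjusted p = 0.0699 and 0.113 against vehicle, 0.0985 and 0.0923 on paclitaxel).

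The lesser response of HEC265 was tested as a difference between lines, added after the values were seen. With SM08502 against vehicle, HEC265 exceeded Ishikawa by 0.64, Ishikawa-S33Y by 0.56 and SNGM by 0.62. None of these reached an adjusted p under 0.05 in limma (0.0671, 0.0736 and 0.0840); 3 of 6 pairs were at an unadjusted p under 0.05 and limma voom called 2. Of all genes 2.43%, 3.66%, 2.56%, 9.83%, 5.66% and 2.03% were called for the pairs in the order given for HYAL3. Without the shallow libraries all 3 were called (adjusted p = 0.0349, 0.0427 and 0.0416). With the combination against paclitaxel, where 9.31%, 3.37%, 2.35%, 20.2%, 12.4% and 3.43% of genes were called in that order, HEC265 exceeded Ishikawa-S33Y by 0.66 (SE 0.18, adjusted p = 0.0194), and the other 5 pairs were not called. That value was 0.55 (adjusted p = 0.0658) without the shallow libraries.

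HYAL1, the lysosomal enzyme, had 0 to 85 reads per library and passed 1 CPM in 17 of 32 libraries, against 30 for HYAL3 and 32 for HYAL2. All 3 passed the filter of more than 1 CPM in at least 2 libraries. Against vehicle, HYAL1 fell with SM08502 in HEC265, at 0.893 and 0.937 CPM (20 and 26 reads) against 2.40 and 3.01 CPM (54 and 78 reads), a difference of -0.95 (SE 0.21, limma adjusted p = 0.00334). SNGM had 1.82 and 1.58 CPM on vehicle and 1.02 and 1.21 CPM on SM08502, a difference of -0.35 that was not called (adjusted p = 0.379). Ishikawa had 0.863 and 1.07 CPM on vehicle and 1.21 and 0.851 CPM on SM08502, with overlapping ranges and a difference of 0.04. Ishikawa-S33Y had 1.23 and 0.922 CPM, then 0.875 and 0.938 CPM, a difference of -0.12. The mean over lines was -0.35 (adjusted p = 0.0117), a call lost with a pseudocount of 0.1 in place of 1 (-0.54, adjusted p = 0.181). The HEC265 call was lost without vehicle replicate 2 (-0.83, adjusted p = 0.0577) and with that pseudocount (adjusted p = 0.122). As a difference between lines, tested after the values were seen, HEC265 minus Ishikawa was -0.99 (adjusted p = 0.0774) and HEC265 minus Ishikawa-S33Y -0.83 (adjusted p = 0.107). Limma called 0 of 6 pairs (unadjusted p under 0.05 in 2) and limma voom called 1. Without the shallow libraries both of these pairs were called (adjusted p = 0.00299 and 0.00543).

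On paclitaxel HYAL1 fell in SNGM and HEC265. SNGM went from 2.71 and 2.52 CPM (83 and 75 reads) to 0.964 CPM (26 reads) and, in the shallow library, 0 reads, a difference of -1.37 (adjusted p = 1.80e-04), or -0.88 (adjusted p = 0.00134) with the shallow libraries left out. HEC265 went from 3.41 and 2.96 CPM to 1.29 and 1.00 CPM, a difference of -0.96 (adjusted p = 0.00281), lost without combination replicate 2 (-0.87, adjusted p = 0.0526) and with a pseudocount of 0.1 (adjusted p = 0.137). Fitted on its own line, SNGM was not called (adjusted p = 0.0918). In both lines every combination library was below every paclitaxel library. Ishikawa went from 1.04 and 0.836 CPM to 0.549 and 0.672 CPM (9 reads each), a difference of -0.27 that was not called (adjusted p = 0.430). Ishikawa-S33Y went from 0.863 and 1.03 CPM to 0.617 CPM and, in the shallow library, 0.334 CPM from 1 read, a difference of -0.41 (adjusted p = 0.129). The mean was -0.75 (adjusted p = 6.13e-06), and -0.59 without the shallow libraries.

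**Figure D3:**
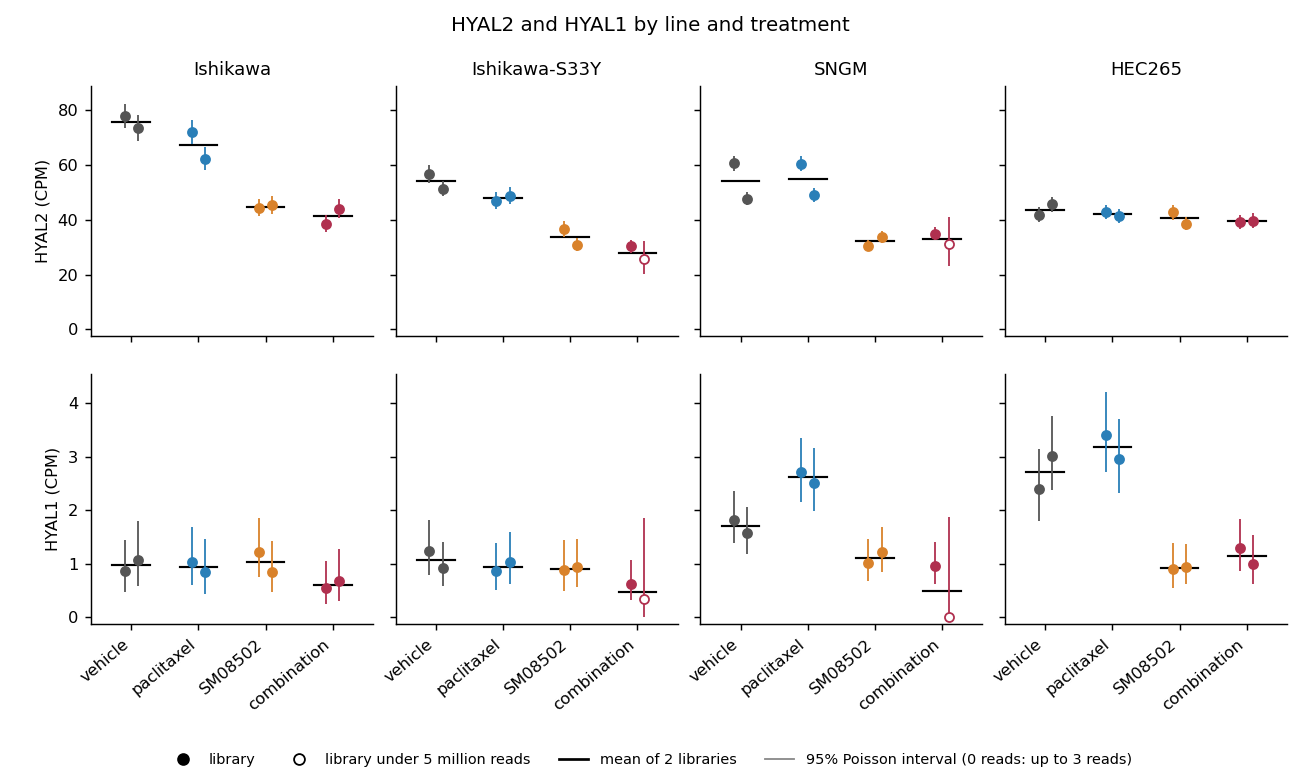
HYAL2 (top) and HYAL1 (bottom) in CPM by treatment, with a panel for each cell line; symbols as for HYAL3 and NAA80. HYAL2 in HEC265 stays at 38.5 to 45.6 CPM in all 8 libraries, and HYAL1 lies at or under 3.41 CPM throughout.

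The line difference of HYAL1 on paclitaxel, also tested after the values were seen, was called for 2 of 6 pairs: SNGM minus Ishikawa at -1.10 (SE 0.29, adjusted p = 0.0412) and SNGM minus Ishikawa-S33Y at -0.96 (adjusted p = 0.0246), where 3.37% and 20.2% of all genes were called. Neither was called without the shallow libraries (-0.61 and -0.61, adjusted p = 0.0838 and 0.0647). Then the called pairs were instead HEC265 minus Ishikawa (-0.70, adjusted p = 0.0266) and HEC265 minus Ishikawa-S33Y (-0.70, adjusted p = 0.0241).

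Paclitaxel on its own called neither HYAL1 nor HYAL2, in the mean or in any line. The limma spread is pooled over all groups, the shallow libraries included. Of the 8 single-line values of HYAL1 and HYAL2, 0 were at an unadjusted p under 0.05 in limma and 1 in limma voom. The means over lines were 0.12 (95% interval -0.10 to 0.34) and -0.09 (-0.23 to 0.04), with 0 of 2 called by limma and limma voom and 0 of 2 at an unadjusted p under 0.05; of all genes 0.0% were called in limma. The largest single-line value was HYAL1 in SNGM, 2.71 and 2.52 CPM on paclitaxel against 1.82 and 1.58 CPM on vehicle, a difference of 0.42 (95% interval -0.011 to 0.85, adjusted p = 1; 0.0176% of genes called in that line).

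On vehicle the paralogues ranked the lines differently. HYAL2 was highest in Ishikawa (75.7 ± 3.16 CPM), followed by SNGM (54.1 ± 9.19), Ishikawa-S33Y (54.0 ± 3.76) and HEC265 (43.8 ± 2.59; SD, n = 2). Ishikawa differed from each of the others in limma (adjusted p at most 0.00397), and the 3 others did not differ beyond their spread (adjusted p at least 0.0537). HYAL1 was highest in HEC265 (2.71 ± 0.43 CPM), which differed from Ishikawa-S33Y (1.08 ± 0.22) and Ishikawa (0.969 ± 0.15) but not from SNGM (1.70 ± 0.17; adjusted p = 0.0700). HYAL3 on vehicle, described without a test, was highest in Ishikawa-S33Y (17.9 ± 0.54 CPM) and lowest in SNGM (9.51 ± 1.36). For the line pairs on vehicle, in the order given for HYAL3, 48.3%, 66.8%, 63.3%, 60.8%, 58.0% and 54.9% of all genes were called. Without the shallow libraries 5 of 6 pairs were called for HYAL2 (3 with them) and 5 of 6 for HYAL1 (2 with them).

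Around the cluster the changes did not run in a single direction. Of 15 neighbouring genes listed from chromosome band 3p21.31, 13 were measured well enough to test. On paclitaxel 5 were called higher (NAA80 included) and 4 lower, with a median of -0.04, against 25.7% and 19.1% of all genes and a median of 0.03. IFRD2, an interferon-related regulator whose right end is 402 bp from HYAL3, rose by 0.27 (adjusted p = 0.000583) in combination against paclitaxel and by 0.31 in SM08502 against vehicle. TUSC2, a candidate tumour suppressor beside HYAL2, was 0.20 on paclitaxel (adjusted p = 0.0106) and 0.08 against vehicle, the latter not called. SEMA3B, a secreted semaphorin, fell by 0.78 on paclitaxel and by 0.63 against vehicle (adjusted p = 0.000783). The other calls on paclitaxel, named after their values were seen, were RASSF1 (0.44), NPRL2 (0.49), SEMA3F (-0.48), SLC38A3 (-0.21) and TMEM115 (-0.20). Without the shallow libraries SLC38A3 and TMEM115 were no longer called. HYAL3 and NAA80 lay outside the range of all other tested neighbours, which for HYAL3 follows partly from its being picked for its fall.

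**Figure D4:**
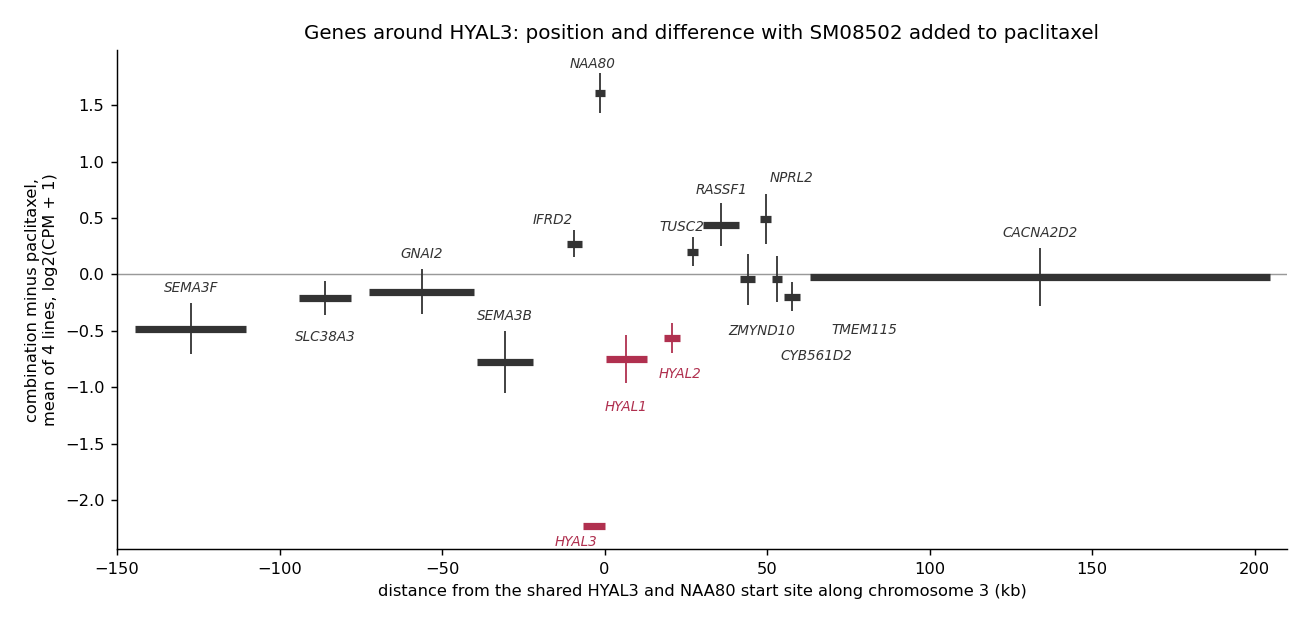
Genes around HYAL3, drawn by distance from the start site shared by HYAL3 and NAA80 (horizontal axis, kb) and by difference of log2(CPM + 1) between combination and paclitaxel, mean of 4 lines (vertical axis). Thick bars span each gene, thin lines are 95% intervals (none for HYAL3, which has no test), and the hyaluronidases are in red. NAA80 is at 1.61 and HYAL3, picked for its fall with SM08502, at -2.23, while the other genes lie between -0.78 and 0.49.

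The wider hyaluronan pathway was read from a list of 39 further genes, of which 26 could be tested. Which of these were called, higher or lower, depended in part on whether the shallow libraries were fitted. With SM08502 against vehicle 0 were called higher in limma (0 at an unadjusted p under 0.05, and 1 in limma voom) and 7 lower, with a median of -0.07 against 0.05 for all genes, of which 22.6% were called higher and 15.8% lower. On paclitaxel 0 were called higher in limma (2 at an unadjusted p under 0.05, and 0 in limma voom) and 8 lower (median -0.09, all genes 0.03), where 25.7% of all genes were called higher and 19.1% lower. The other family members HYAL4, SPAM1 and the pseudogene HYALP1 were too low to test, at no more than 1.24, 0.432 and 0.0746 CPM in any library.

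Among 7 tested synthesis genes HAS3, a hyaluronan synthase, was the single call with all libraries fitted. It was -0.33 against vehicle (adjusted p = 0.00635) and -0.26 on paclitaxel (adjusted p = 0.0231). A single call among 7 is a share near that of all genes called lower, at 15.8% and 19.1%. Without the shallow libraries HAS3 was -0.25 on paclitaxel and no longer called there. GFPT2 and UAP1, also of the synthesis list, are named after their values were seen. In that fit they were -0.19 and 0.17 against vehicle, and -0.42 and 0.05 on paclitaxel. Which synthesis genes were called thus depended on the shallow libraries. HAS3 was mostly an SNGM gene. There it went from 126 ± 3.35 CPM on paclitaxel to 59.2 ± 4.51 on the combination (SD, n = 2), a difference of -1.08 (adjusted p = 4.78e-04). In Ishikawa-S33Y it rose from 6.38 ± 1.05 to 10.2 ± 0.21 CPM, a difference of 0.61 (adjusted p = 0.0110). On paclitaxel 6.6% of all genes were called lower in SNGM and 22.1% higher in Ishikawa-S33Y. The test of the difference between these lines, added after the values were seen, gave -1.69 (SE 0.26, adjusted p = 1.50e-04), where 20.2% of all genes were called. HAS2, another synthase, was at 0 to 4.36 CPM and was not called (-0.05 and 0.02).

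Among 4 tested degradation genes apart from the members, GUSB, the lysosomal beta-glucuronidase, fell by 0.23 against vehicle and by 0.35 on paclitaxel (adjusted p = 8.14e-05). These comparisons called 15.8% and 19.1% of all genes lower. HEXA, part of a lysosomal exoglycosidase, was called on paclitaxel (-0.19, adjusted p = 0.0232) and not against vehicle (-0.15, adjusted p = 0.0677). Without the shallow libraries HEXA was -0.11 on paclitaxel and -0.15 against vehicle. Whether it was called depended on those libraries in both comparisons. CEMIP, a hyaluronan-binding protein needed for depolymerisation in several cell types, was not called in the mean (-0.08 and -0.18) but moved in opposite directions by line. On paclitaxel it fell from 8.42 ± 0.93 to 3.11 ± 1.56 CPM in Ishikawa-S33Y (-1.25, adjusted p = 9.18e-05) and rose from 49.8 ± 0.81 to 87.3 ± 23.1 CPM in SNGM (0.77, adjusted p = 0.0168). There 17.4% of all genes were called lower in Ishikawa-S33Y and 9.28% higher in SNGM. The difference between these lines, also tested after the values were seen, was 2.02 (SE 0.30, adjusted p = 1.15e-04), where 20.2% of all genes were called. CEMIP2 (row TMEM2), a relative of CEMIP, was not called (-0.14 and -0.07).

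Of 6 tested receptors HMMR, a hyaluronan receptor that also binds spindle microtubules, was the single call, a share near that of all genes called lower (15.8% and 19.1%). HMMR fell by 0.72 with SM08502 against vehicle and by 0.96 with the combination against paclitaxel. In the latter comparison it was lower in all 4 lines (adjusted p at most 0.0453). Over the 8 libraries of each kind it ran from 49.6 to 102 CPM on paclitaxel (median 64.1) and from 17.2 to 70.7 CPM on the combination (median 31.8), and these ranges overlapped across lines. CD44, the main surface receptor, stood at 371 to 3450 CPM and was not called (0.09 and 0.15). Among 9 tested matrix binders, 4 fell in both comparisons, where 15.8% and 19.1% of all genes were called lower. ITIH5, a heavy chain of the inter-alpha-trypsin inhibitors that bind hyaluronan, fell by 0.81 and 0.90, and AMBP, the precursor of their light chain bikunin, by 0.63 and 0.70. VCAN (-0.32 and -0.27) and HAPLN3 (-0.24 and -0.25) are named after their values were seen, and VCAN was not called on paclitaxel without the shallow libraries (-0.27, adjusted p = 0.0750). ITIH5 was high only in the related lines, with 169 ± 80.8 CPM in Ishikawa and 234 ± 9.06 in Ishikawa-S33Y on paclitaxel, and fell there by 1.83 and 1.94. In SNGM and HEC265 it stood at 1.87 ± 0.06 and 1.29 ± 0.07 CPM and was not called. SNGM minus Ishikawa-S33Y, tested after the values were seen, was 1.65 (SE 0.38, adjusted p = 0.00442), where 20.2% of all genes were called.

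**Figure D5:**
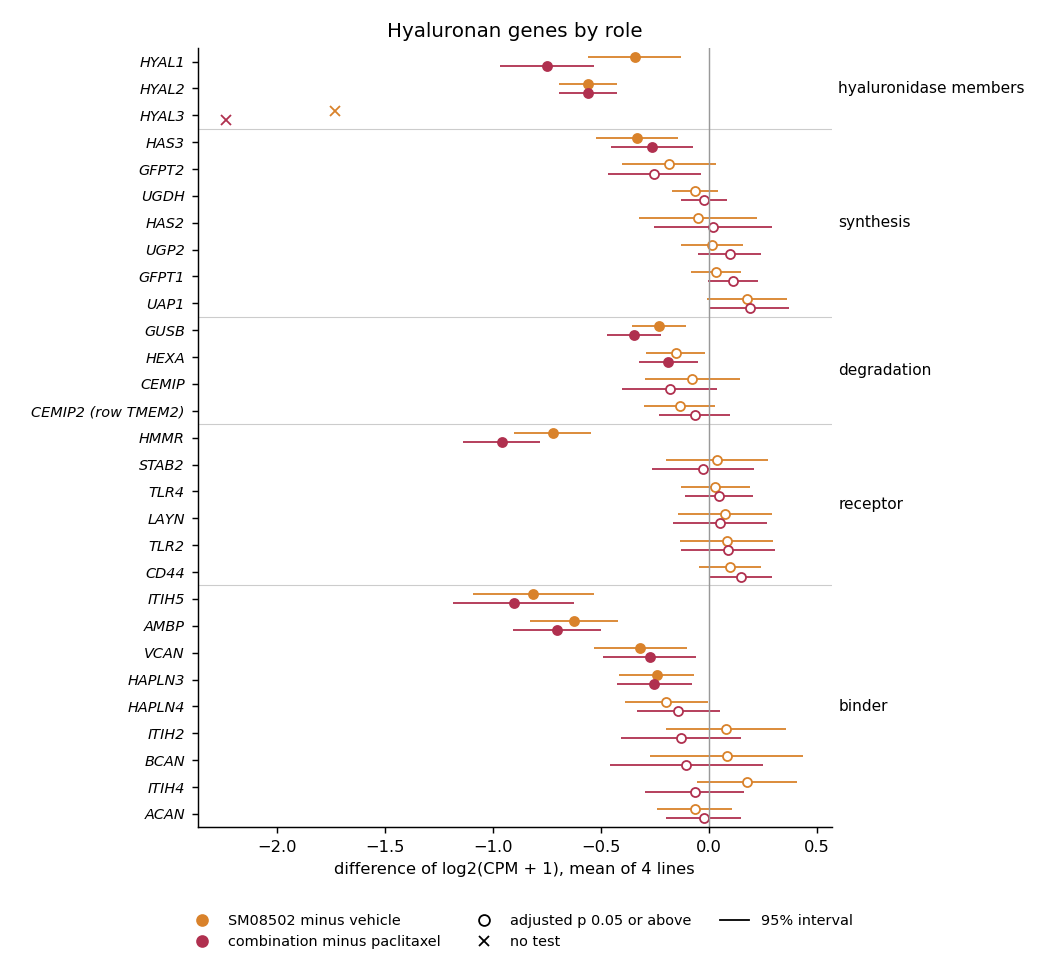
Tested hyaluronan genes by role (rows), with the difference of log2(CPM + 1) as the mean of 4 lines on the horizontal axis. Orange is SM08502 minus vehicle, red combination minus paclitaxel, lines are 95% intervals, open points have an adjusted p of 0.05 or above, and crosses mark HYAL3, with no test. HYAL3, picked for its fall with SM08502, lies at -2.23 on paclitaxel. Of the other genes drawn, which were chosen with earlier results of these data known, HMMR is the lowest there at -0.96.

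The genes whose pattern was most like that of HYAL3 were found by Pearson correlation of log2(CPM + 1), centred on each line, over the 30 deep libraries and 14408 genes. They were ITGB5 (0.98), LAP3 (0.98), B4GALT6 (0.98), UROS (0.98) and PITRM1 (0.98), and the most opposite were PRPF3 (-0.98), ZNF782 (-0.98) and VDAC1P8 (-0.97). HYAL2 stood at 0.86 and HYAL1 at 0.71. NAA80 stood at -0.96, the 18th lowest of all genes compared. These are descriptions over libraries that share treatments and lines, and include those that chose HYAL3.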

How the data were processed

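Total RNA of 32 cultures was depleted of ribosomal RNA and sequenced, per the labels' protocols. The submitters' processing notes name bcl2fastq, kallisto and STAR and the build GRCh38; the roles of the aligners, the counting and its use of strand are not given in the sources used here. The authors deposited a table described as log CPM, and its values are log10(CPM + 1): back-transformed columns sum to 1000000, and 100% of values are whole reads within a tolerance of 0.01. The splicing results were not analysed here.

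Differences were taken on log2(CPM + 1), with a pseudocount of 1, for 17011 genes above 1 CPM in at least 2 libraries. limma 3.58.1 (R 4.3.3) fitted 16 group means to all 32 libraries with a trended prior. Tests were two-sided, with Benjamini-Hochberg adjustment over all tested genes within each contrast and a threshold of 0.05; SEs and intervals are limma's. Summaries were made in Python 3.11.15. An exact permutation test of HYAL3 against its neighbours and limma tests of its response on paclitaxel had been planned, but are not given as tests, since the combination libraries were known when HYAL3 was chosen. limma voom on the recovered reads was an alternative. On simulated counts for the combination against paclitaxel over 17011 genes, 99% of 100 genes changed 2-fold and 100% of 100 changed 4-fold were recovered, with 14 false calls. These figures are for the mean over lines, with changes planted only in genes of higher mean level than HYAL1 and a fixed spread for all genes. They do not cover genes as low as HYAL1, single lines or line pairs.

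The members and lists were chosen with earlier results of these data known. The text names the 3 members; of the pathway list, the 3 largest called rises and falls against vehicle with CD44, HMMR, CEMIP, CEMIP2, HAS2, HAS3, HEXA and GUSB; of the neighbours, NAA80, IFRD2, TUSC2 and any called with an absolute difference of 0.5 or more; and the 5 most like and 3 most unlike HYAL3. 1 gene of the pathway list is not reported here and is left out of its counts. Gene positions and the upstream window are from RefSeq on GRCh38.p14. Alternatives were another pseudocount, no filter, median re-centring, quantile scaling, a replicate block, voom, single-line fits, leaving out the shallow libraries and leaving out each replicate.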

Additional observations from a re-analysis of the deposited data

Results flagged for a closer look

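The response to SM08502 on paclitaxel differed between lines by a test of that difference for 6 results, each in limma. These differences were tested after the values were seen. SNGM minus Ishikawa, SNGM minus Ishikawa-S33Y and HEC265 minus Ishikawa-S33Y called 3.37%, 20.2% and 12.4% of all genes. For HYAL1 the response was lower in SNGM than in Ishikawa by -1.10 (SE 0.29, adjusted p = 0.0412) and than in Ishikawa-S33Y by -0.96 (adjusted p = 0.0246), and without the shallow libraries both were -0.61 (adjusted p = 0.0838 and 0.0647). For HYAL2 the response in HEC265 exceeded that in Ishikawa-S33Y by 0.66 (SE 0.18, adjusted p = 0.0194), or 0.55 (adjusted p = 0.0658) without the shallow libraries.

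For SNGM minus Ishikawa-S33Y, the 3 pathway genes picked after their values were seen differed with and without the shallow libraries. With these libraries 20.2% of all genes were called for that pair. HAS3, a hyaluronan synthase, gave -1.69 (adjusted p = 0.000150) and -1.59 (adjusted p = 0.00226). CEMIP gave 2.02 (adjusted p = 0.000115) and 1.89 (adjusted p = 0.000123). ITIH5 gave 1.65 (adjusted p = 0.00442) and 2.11 (adjusted p = 0.000936), with the SNGM value itself at -0.29 and, without the shallow libraries, 0.25, neither called.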

How the results depend on the processing

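Over 3846 alternative values of 95 results, 12 reversed direction. The means on paclitaxel of NAA80 (1.48 to 2.07), HYAL2 (-0.60 to -0.51) and HYAL1 (-1.48 to -0.59) kept their calls in every alternative run, and that of HYAL3, with no test, ran from -3.02 with a pseudocount of 0.1 to -1.85 without the shallow libraries. The mean of HYAL1 against vehicle was lost with a pseudocount of 0.1 (-0.54, adjusted p = 0.181). Within lines, HYAL3 on paclitaxel, with no test, was -1.65 in Ishikawa and -1.96 in HEC265 with that pseudocount, and -1.46 in Ishikawa and -2.72 in SNGM when fitted on its own line; without a replicate the Ishikawa value ran from -1.67 to -1.25. The cause of lost calls was not tested.

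Counts of line pairs called were the least stable. For HYAL3 on the combination against paclitaxel no count is given, since its response there has no test. For the HYAL3 level on paclitaxel the count of 0 became 1 in voom. For HYAL1 on the combination against paclitaxel the count of 2 became 1 with no filter, 0 with a pseudocount of 0.1 and 0 in voom (0 to 4 without a replicate), and for its level on vehicle 0 with that pseudocount and 5 after re-centring, quantile scaling, voom or without the shallow libraries (2 to 5 without a replicate). For HYAL2 on the combination against paclitaxel the count of 1 became 3 after quantile scaling and 0 without the shallow libraries (0 to 3 without a replicate), and for its level on vehicle the count of 3 became 5 after quantile scaling, in voom and without the shallow libraries (3 to 5 without a replicate).

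Pathway genes called higher against vehicle went from 0 to 1 in voom and 1 without the shallow libraries (0 to 1 without a replicate), and on paclitaxel from 0 to 1 with no filter, 2 after quantile scaling and 1 without the shallow libraries (0 to 4 without a replicate). Neighbours called lower on paclitaxel went from 4 to 2 without the shallow libraries, and against vehicle ran from 2 to 4 without a replicate. Directions reversed for HYAL1 in Ishikawa against vehicle (0.042; -0.037 after quantile scaling, -0.087 to 0.17 without a replicate), for TMEM2 on paclitaxel (-0.067; -0.16 to 0.028 without a replicate) and for HAS2 on paclitaxel (0.018; -0.31 with a pseudocount of 0.1, -0.012 after quantile scaling, -0.45 in voom, -0.081 without the shallow libraries, and -0.15 to 0.19 without a replicate). No reversed value was called, while TMEM2 was called without Ishikawa paclitaxel replicate 2 (-0.16, adjusted p = 0.0212).

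Replicate numbers did not pair the samples in a consistent way. Over 6083 genes, same-numbered deviations of 2 groups correlated from -0.57 to 0.86 in Ishikawa and from -0.65 to 0.84 in SNGM. In Ishikawa-S33Y the correlations ran from -0.12 to 0.14 and in HEC265 from -0.15 to 0.33. Deviations of some groups in Ishikawa and SNGM were thus related, which the limma p-values without a block do not allow for. With a replicate block the mean on paclitaxel was -2.23 for HYAL3, 1.61 for NAA80 (adjusted p = 7.86e-10), -0.56 for HYAL2 (1.55e-06) and -0.75 for HYAL1 (2.35e-05); the block changed the pairs called for HYAL1 on paclitaxel to 1 and for HYAL2 on vehicle to 5. Depth limits HYAL1 and HYAL3 most in the shallow libraries, where they had 0 or 1 read.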
